A study of Mus musculus with 16 samples.

Results

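Mast cell transcripts were followed in mouse flexor tendon through 9 genes that mark this cell type: the granule proteases Cpa3, Cma1, Mcpt4, Tpsb2 and Tpsab1, the growth factor receptor Kit, the IgE receptor chains Fcer1a and Ms4a2, and the histamine-forming enzyme Hdc. They were taken by symbol from a count table of 49568 gene symbols, and all 9 had at least 1 count in some library. RNA-seq covered 16 libraries, each from the deep digital flexor tendon of a male young adult mouse, with 4 libraries in each of 4 groups. The groups were uninjured C57BL/6J (C57) tendon, C57 tendon 7 days post-injury (dpi), uninjured MRL/MpJ (MRL) tendon and MRL tendon at 7 dpi. The injury was a laceration through 50% of the tendon, and MRL is an inbred strain known for healing several tissues with little scarring. No engineered allele is described in either strain. Surgery was done under ketamine and xylazine with buprenorphine afterwards, agents not described for uninjured tendons, so injury and these agents cannot be told apart. Injured libraries go by their label names: C57 tendons were BI-181 and BI-183 along with BI-184 and BI-185, and MRL tendons were BI-270 and BI-272 along with BI-274 and BI-275. Values of the 4 libraries of a group are given in this order or in that of the replicate number. The sheath and tissue around the tendon were not removed before RNA was extracted.

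Mast cells are resident immune cells of connective tissue that lie near vessels and nerves and depend on stem cell factor, the product of Kitl, acting on Kit. Their granules hold histamine, the proteoglycan serglycin and large amounts of proteases. In the mouse, connective tissue mast cells carry the chymases mMCP-5 (Cma1) and mMCP-4 (Mcpt4), the tryptases mMCP-6 (Tpsb2) and mMCP-7 (Tpsab1) and carboxypeptidase A3 (Cpa3), whereas the chymases of mucosal mast cells are mMCP-1 and mMCP-2 (Mcpt1, Mcpt2). Cross-linking of IgE bound to the receptor built from Fcer1a, Ms4a2 and Fcer1g releases the granules.

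Gene counts summed to 12552424 to 23741648 per library, and injured MRL libraries were the deepest (18524170 to 23741648). Levels are given as CPM (counts scaled to a common total) on library sizes adjusted by TMM, a scaling between libraries, and the floor, set at 3 counts, was 0.128 to 0.237 CPM. Tendon markers (8 genes, among them Scx, Tnmd and Fmod) were detected in every library, with 7 or 8 of 8 genes. Some libraries stood apart in markers of other tissues. Markers of epidermis took 9.63% of the counts of C57 uninjured replicate 4, and markers of skeletal muscle took 7.51% of those of BI-181. Skeletal muscle markers (12 genes) also summed to 2236 CPM in BI-183, against 6.48 to 20.4 CPM in the other 14 libraries. Within a group no library file repeated another, since correlations between its replicates were at most 0.967 (Spearman).

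Mast cell transcripts were a very small part of each library and differed widely between animals. The summed CPM of the 9 genes was 13.7, 11.4, 21.8 and 17.0 in uninjured C57 replicates 1 to 4, and 83.4 in BI-181, 301 in BI-183, 11.6 in BI-184 and 145 in BI-185 after injury. In MRL it was 5.91, 30.4, 115 and 3.87 in uninjured replicates 1 to 4, and 0.213 in BI-270, 3.35 in BI-272, 102 in BI-274 and 18.4 in BI-275 after injury. In C57, 3 of the 4 injured tendons exceeded every uninjured tendon, whereas both MRL groups ran from a few CPM or less to above 100 CPM. BI-183, the library with the highest sum, had 0.0322% of its counts on these genes. In bulk tissue, fewer mast cells and less RNA per cell cannot be told apart. The stacked plot of summed CPM shows these values by library.

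**Figure D1:**
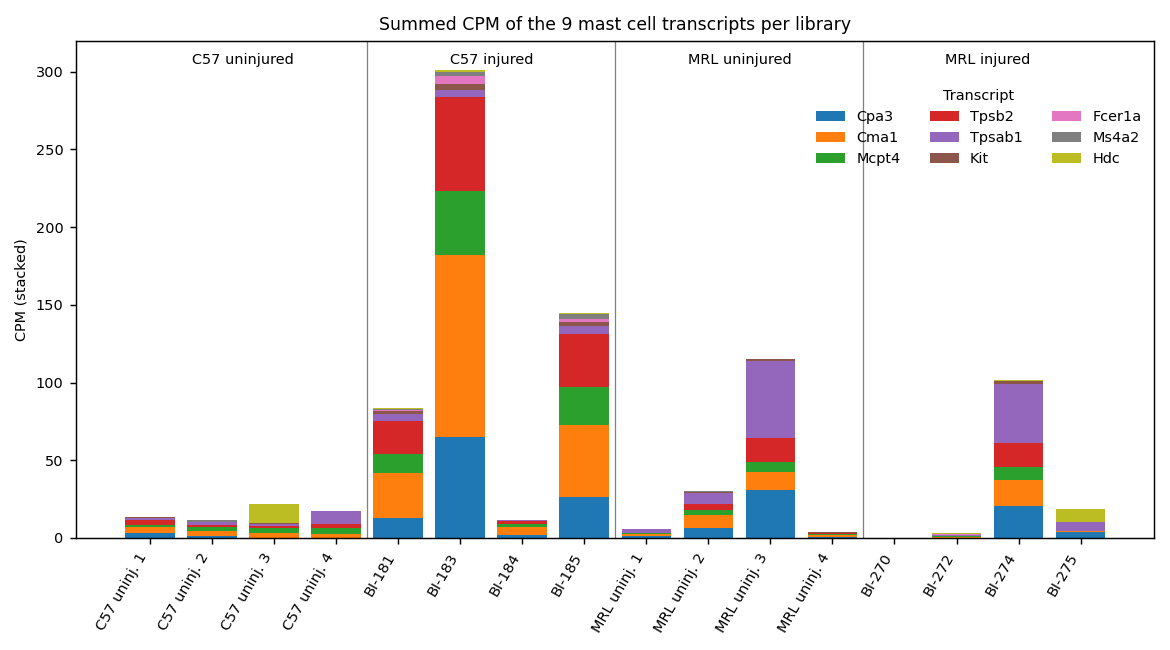
Stacked bars give the CPM of the 9 mast cell transcripts in each of the 16 libraries, and vertical lines divide the 4 groups. BI-183 reaches 301 CPM, while BI-270 has 0.213 CPM, all of it Kit.

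The chymases Cma1 and Mcpt4 were the steadiest mast cell transcripts of uninjured C57 tendon. Cma1 lies on chromosome 14 of GRCm38 (55941451 to 55944675, minus strand) and Mcpt4 lies on the same chromosome and strand (56059629 to 56062313). Both belong to the cluster of serine proteases expressed by mast cells and other leukocytes, with Mcpt1, Mcpt2, Mcpt9 and Cma2 between them. Their coding sequences aligned with 64.6% identical bases over 738 aligned bases. The stretch of 100 coding bases in which they are most alike is shown because counts of such related genes can be mixed in mapping. Capitals mark the 15 bases that differ.
Cma1, coding bases 633 to 732: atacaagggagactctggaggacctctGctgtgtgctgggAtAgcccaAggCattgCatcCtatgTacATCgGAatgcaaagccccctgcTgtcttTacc
Mcpt4, coding bases 591 to 690: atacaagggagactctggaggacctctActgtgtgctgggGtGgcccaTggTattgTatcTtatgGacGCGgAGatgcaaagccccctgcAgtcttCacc
No stretch of 100 bases, the read length, of a Cma1 transcript was found in a transcript of another gene, and 1 of 1009 such stretches of Mcpt4 was found in another gene, Cma2.

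Cma1 had 3.54, 3.42, 2.91 and 2.73 CPM in the 4 uninjured C57 libraries, and 29.3, 117, 5.54 and 46.6 CPM in the injured libraries. In MRL it had 1.51, 8.25, 11.6 and 1.42 CPM before injury, and 0, 0.589, 17.0 and 0.602 CPM after it. All injured C57 values lay above all uninjured C57 values, with BI-184 nearest to them, and the MRL groups overlapped. Mcpt4 had 1.87, 2.13, 3.37 and 3.32 CPM in uninjured C57 and 12, 41.3, 1.87 and 24.7 CPM in injured C57 libraries, in the same order. In MRL it had 0.328, 3.37, 6.54 and 1.11 CPM before injury and 0, 0.272, 7.93 and 0.109 CPM after it. Mcpt4 in BI-184 stood at the level of uninjured tendon, and BI-274 alone of the injured MRL libraries had more than 0.3 CPM. The Cma1 share of Cma1 and Mcpt4 counts ranged from 45.2% to 84.6% over the 15 libraries that had such counts, from 45.2% to 65.4% in uninjured C57 and from 65.3% to 74.8% in injured C57.

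Cpa3 encodes carboxypeptidase A3, stored in the granules together with mMCP-5, and lies on chromosome 3 (20215620 to 20242181, minus strand), where it contains the microRNA gene Mir7007 on the same strand. It had 3.14, 1.16, 0.230 and 0 CPM in uninjured C57, and 12.6, 65.1, 1.55 and 26.0 CPM in the injured libraries. In MRL the values were 1.12, 6.24, 30.8 and 0.237 CPM before injury and 0, 0.181, 20.5 and 3.56 CPM in the injured libraries. Uninjured MRL replicate 3 thus had more Cpa3 than any uninjured C57 library and more than 3 of the 4 injured C57 libraries.

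The tryptases Tpsb2 (chromosome 17, 25366305 to 25369098, plus strand) and Tpsab1 (chromosome 17, 25343245 to 25345562, minus strand) are neighbours that point away from each other. Tpsb2 had 3.14, 1.81, 0.995 and 2.80 CPM in uninjured C57 and 21.3, 60.4, 1.93 and 34.2 CPM in the injured libraries. In MRL it had 0.263, 3.88, 15.2 and 0.316 CPM before injury and 0, 0.453, 15.9 and 0 CPM after it. Its order over the libraries was close to that of the chymases, with BI-184 inside the range of uninjured C57. Tpsab1 had 1.13, 1.61, 1.53 and 8.13 CPM in uninjured C57 and 4.78, 4.39, 0.645 and 4.84 CPM in injured C57. In MRL it had 2.69, 7.39, 49.9 and 0 CPM before injury and 0, 0.408, 38.0 and 6.02 CPM after it. Tpsab1 was highest in MRL libraries (uninjured replicate 3 and BI-274), whereas Cma1, Mcpt4, Cpa3 and Tpsb2 were highest in BI-183.

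Kit, on chromosome 5 (75574916 to 75656722, plus strand), encodes the receptor for stem cell factor and is also made by melanocytes and other cells. It had 0.934, 0.194, 0.383 and 0 CPM in uninjured C57 and 1.84, 3.71, 0 and 2.85 CPM in injured C57. In MRL it had 0, 0.215, 1.37 and 0.474 CPM before injury and 0.213, 0, 1.85 and 0 CPM after it. The 3 injured C57 libraries with many protease counts were therefore above all uninjured libraries of their strain, and BI-184 had no Kit count.

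Fcer1a (chromosome 1, 173221284 to 173227214, minus strand), the IgE-binding chain of the receptor, had no count in any of the 8 uninjured libraries. It had 0.490, 5.19, 0 and 1.85 CPM in the injured C57 libraries, and 0.634 CPM in BI-272, the only injured MRL library with a count. Ms4a2 (chromosome 19, 11615523 to 11623719, minus strand), the chain that amplifies its signal, had 0.968 CPM in uninjured C57 replicate 2 and 0.933 CPM in uninjured MRL replicate 2, and no count in the other uninjured libraries. After injury it had 0.919, 2.53, 0.0645 and 2.99 CPM in C57, and no count in any MRL library. Floors of 0.128 to 0.164 CPM in injured MRL libraries limit what this absence can show, and BI-272 had Fcer1a without Ms4a2.

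Hdc (chromosome 2, 126593667 to 126619299, minus strand), which makes histamine and is also made by other myeloid cells, followed a course of its own. It had 0, 0.0645, 12.4 and 0 CPM in uninjured C57, and 0.184, 1.17, 0 and 0.712 CPM in the injured libraries. In MRL it had 0, 0.0718, 0 and 0.316 CPM before injury and 0, 0.815, 0.541 and 8.15 CPM after it. Its highest values were in uninjured C57 replicate 3 and BI-275, neither of which had the most protease counts in its group. The panel of levels by group shows each member on the log2 scale.

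**Figure D2:**
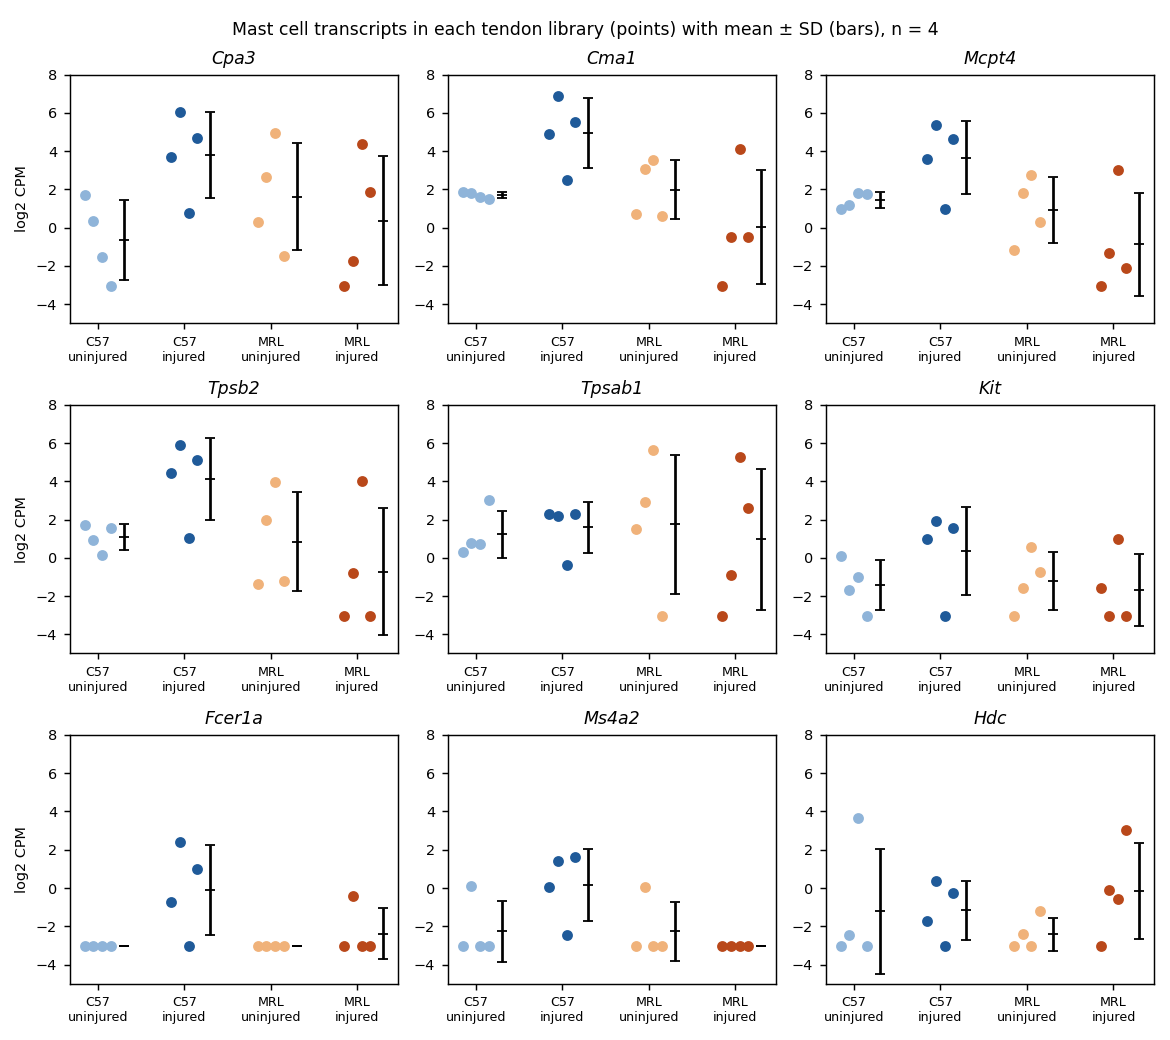
Each panel gives log2 CPM (prior count of 2) of a mast cell transcript, with points for the 4 libraries of each group and a bar for their mean ± SD. Cma1, Mcpt4 and Tpsb2 share a pattern with 3 high and 1 low injured C57 libraries, while Hdc is high in uninjured C57 replicate 3 and BI-275.

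Compared per kilobase of exon, and thus between genes, the mean level of Cma1 was the highest of the 9 in both C57 groups (2.89 CPM per kilobase before and 45.5 after injury). Tpsab1 was the highest in both MRL groups (7.16 and 5.30 CPM per kilobase) and ranked 6 of 9 in injured C57 tendon (1.75 CPM per kilobase). The level in uninjured MRL rested on replicate 3, without which Tpsab1 was at 1.61 and Cma1 first at 3.42 CPM per kilobase. The level in injured MRL rested on BI-274, without which Tpsab1 was still first, at 1.02 CPM per kilobase. Cma1 in injured C57 was at 24.9 CPM per kilobase without BI-183. In injured C57 tendon Cma1 was followed by Tpsb2 (18.5), Mcpt4 (18.0) and Cpa3 (17.3 CPM per kilobase), 3 levels that lay far closer together than the values of the 4 libraries behind each. Without BI-183 they were 12, 11.6 and 8.82 CPM per kilobase, in the same order. The order changed without BI-181 (Mcpt4 20.4, Cpa3 20.3 and Tpsb2 20.2) and without BI-185 (Tpsb2 17.5, Cpa3 17.4 and Mcpt4 16.6). Kit was among the 3 lowest in all groups (0.0424 to 0.235 CPM per kilobase).

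The 250 bases upstream of the 3 protease genes Cpa3, Cma1 and Mcpt4 are shown from RefSeq (GRCm38.p6, read in the direction of the gene). GATA2 is a known activator of mast cell genes, and capitals mark a match to AGATAA or TGATAA, letters of the GATA motif, searched on both strands. A match of this kind occurred in 16.6% of 32851 promoter windows of the same length.
Cpa3, chr3:20242182-20242431, minus strand: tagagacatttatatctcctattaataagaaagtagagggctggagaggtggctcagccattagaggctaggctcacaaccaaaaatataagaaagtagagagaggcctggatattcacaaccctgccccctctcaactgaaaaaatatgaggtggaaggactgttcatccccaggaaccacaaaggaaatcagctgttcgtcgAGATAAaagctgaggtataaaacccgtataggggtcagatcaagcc
Cma1, chr14:55944676-55944925, minus strand: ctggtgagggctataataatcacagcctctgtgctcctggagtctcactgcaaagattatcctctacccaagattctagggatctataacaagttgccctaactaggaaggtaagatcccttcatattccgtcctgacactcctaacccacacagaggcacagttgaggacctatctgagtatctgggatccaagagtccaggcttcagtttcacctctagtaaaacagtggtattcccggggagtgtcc
Mcpt4, chr14:56062311-56062560, minus strand: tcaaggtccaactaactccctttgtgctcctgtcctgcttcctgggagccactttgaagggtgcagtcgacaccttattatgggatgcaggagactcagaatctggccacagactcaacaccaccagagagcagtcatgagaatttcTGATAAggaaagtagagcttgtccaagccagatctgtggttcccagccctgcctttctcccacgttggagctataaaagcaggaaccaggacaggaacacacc
The match began at position -46 from the start in Cpa3 and at -103 in Mcpt4, and there was none in the Cma1 window. Fcer1a had 1 match and Ms4a2 had 3, while the windows of Hdc and Kit had none. Tpsb2 and Tpsab1 were not in the table of promoters used. Letters alone do not show binding.

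The first comparison asked how tendon injury changed these transcripts in C57 mice. The 7 members kept by the filter had higher fitted levels at 7 dpi, led by Cpa3, Cma1 and Tpsb2 at 22.1, 15.1 and 12.9 times the uninjured level, but none passed the test. The log2 fold change (± SE) was 3.92 ± 0.77 for Cma1 (adjusted p = 0.053, edgeR), 3.69 ± 0.88 for Tpsb2 (adjusted p = 0.0866), 4.47 ± 1.38 for Cpa3 (adjusted p = 0.183) and 2.84 ± 0.78 for Mcpt4 (adjusted p = 0.14). It was 2.40 ± 1.42 for Kit (adjusted p = 0.457), 2.64 ± 1.63 for Ms4a2 (adjusted p = 0.476) and 0.18 ± 0.86 for Tpsab1 (adjusted p = 0.946). The direction of Tpsab1 depended on single libraries, with -0.088 without uninjured replicate 1, -0.026 without replicate 2, -0.035 without replicate 3 and 1.31 without replicate 4. Thus 0 of 9 members passed an adjusted p under 0.05 with a log2 fold change over 1 in size, where 1.07% of 14424 tested genes did (155 genes, 0.908% higher and 0.166% lower). With a library left out, this share ran from 0.0667% (without uninjured replicate 3) to 5.01% (without uninjured replicate 4). Fcer1a and Hdc were left out of the test by the filter on low counts. Hdc had 0.517 ± 0.532 CPM after and 3.12 ± 6.19 CPM before injury, a lower mean that rested on uninjured replicate 3, since the other uninjured libraries had at most 0.0645 CPM and the direction turned without it. With no filter 8 of 9 members had a positive log2 fold change. Kit and Ms4a2 passed the filter mainly through injured libraries. Without BI-183 the log2 fold change was 3.55 for Cpa3, 3.09 for Cma1, 3.11 for Tpsb2 and 2.24 for Mcpt4. Without uninjured replicate 1 it was 5.73 for Cpa3 and 3.36 for Kit, and that of Ms4a2 rested on uninjured replicate 2, without which its uninjured group was at 0.

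The 4 members (Cpa3, Cma1, Mcpt4 and Tpsb2) had an unadjusted p under 0.05, as had 15.3% of the genes tested. Of the 9, Cma1 was the only gene with no overlap between injured and uninjured libraries, in a comparison where 7.58% of genes were higher without overlap.

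Calls in C57 depended on the tool. DESeq2 called 5 of the 9 members higher at an adjusted p under 0.05, where it called 3.38% of 26926 genes. By adjusted p of DESeq2 these were Cma1 (2.02e-06), Tpsb2 (0.000136), Mcpt4 (0.0032), Cpa3 (0.00336) and Fcer1a (0.0134). Fcer1a entered that fit only through injured libraries, against a group at 0, so nothing is read from its call. Leaving out BI-184 in edgeR brought Cma1 (4.33 ± 0.48, adjusted p = 0.0266) and Tpsb2 (4.12 ± 0.52, adjusted p = 0.0364) past the threshold, while 0.253% of genes passed there. BI-184 was the injured C57 library with the least Cma1 and Tpsb2 (5.54 and 1.93 CPM), so nothing is read from these calls. Cma1 also passed with RLE factors (adjusted p = 0.049) or total counts (adjusted p = 0.0491) in place of TMM, where 1.32% and 1.18% of genes passed.

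In MRL mice no member was shown to change with injury. The filter left 4 members, with log2 fold changes of -0.69 ± 1.68 for Cpa3, -0.36 ± 1.38 for Cma1, -0.48 ± 1.49 for Mcpt4 and -0.46 ± 1.77 for Tpsab1 (adjusted p from 0.825 to 0.897). None of them passed the test in edgeR or had an unadjusted p under 0.05, whereas 7.41% of 14274 genes passed (5.25% higher and 2.15% lower) and 28.3% had an unadjusted p under 0.05. DESeq2 called Hdc (log2 fold change 4.67 ± 1.72, adjusted p = 0.041), with most of its counts in BI-275, and no other member, where it called 6.83% of genes. The direction rested on individual animals. Without uninjured MRL replicate 3 the log2 fold change was 1.22 for Cpa3, 0.25 for Cma1, 0.33 for Mcpt4 and 1.68 for Tpsab1. Without BI-274 it was -2.93, -3.82, -4.41 and -2.79 in the same order. The plot of injury effects sets both strains side by side.

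**Figure D3:**
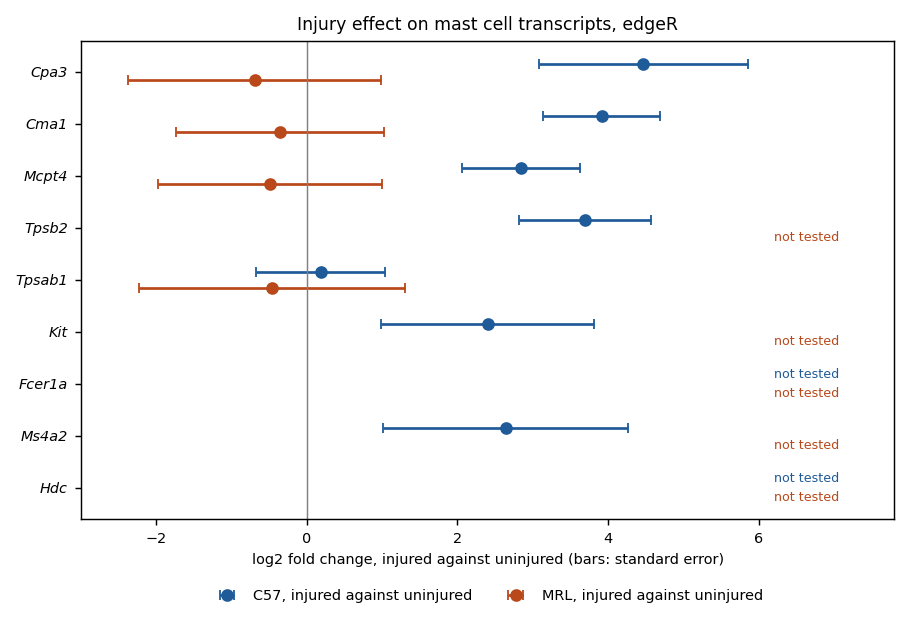
Points give the log2 fold change of injured against uninjured tendon from edgeR for C57 (blue) and MRL (red). Bars give 1 standard error, derived from the test statistic. All C57 points lie above 0, the 4 MRL points lie just below 0 with wide bars, and members left out by the filter are marked as not tested.

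Between uninjured tendons of both strains no member passed the test. The filter left 5 members, all with higher fitted levels in MRL, from 0.06 ± 0.85 for Mcpt4 to 3.07 ± 1.56 for Cpa3 on the log2 scale, with Tpsab1 at 2.23 ± 1.44 (adjusted p from 0.656 to 0.989). In edgeR 0 of 14055 genes passed (0%), 1106 genes and 0 members had an unadjusted p under 0.05, and DESeq2 called 101 genes (0.381%) and 0 members. Uninjured MRL replicate 3 carried most of these differences, and without it Cpa3 was at 1.15, Tpsab1 at 0.12, Mcpt4 at -0.73 and Tpsb2 at -0.56. Without uninjured C57 replicate 4 Tpsab1 was at 3.38, and without uninjured C57 replicate 1 Cpa3 was at 4.34.

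In injured tendons, 5 of 7 tested members had lower fitted levels in MRL than in C57, with log2 fold changes of -3.48 ± 1.61 for Cma1 (adjusted p = 0.264), -3.30 ± 1.56 for Mcpt4 (0.269), -2.88 ± 1.77 for Tpsb2 (0.393), -2.15 ± 1.62 for Cpa3 (0.49) and -2.05 ± 1.58 for Kit (0.495). Tpsab1 (1.55 ± 1.49, adjusted p = 0.596) and Hdc (2.16 ± 1.55, adjusted p = 0.461) had higher fitted levels in MRL. None passed in edgeR or had an unadjusted p under 0.05, where 3.43% of 14626 genes passed (227 higher and 275 lower, or 183 higher and 373 lower with total counts as library sizes). Of all tested genes, 3103 (21.2%) had an unadjusted p under 0.05 in that comparison. Ms4a2, left out by the filter, was at 0 in the 4 MRL libraries and in BI-184 had 1 count, under the floor of 0.193 CPM there. DESeq2, which called 5.49% of genes, called it against that group at 0 (adjusted p = 0.000187) and called no other member. In edgeR, Ms4a2 passed with no filter (adjusted p = 0.0435, 1.85% of genes passing) and without BI-184, the injured C57 library with the least Ms4a2 (adjusted p = 0.0446, 2.54%). Ms4a2 entered the fit without BI-184 only through the C57 libraries in which it was high, so nothing is read from that value. Without BI-274, edgeR called Cma1, Mcpt4 and Tpsb2, as it did 3.19% of genes. The other injured MRL libraries had at most 0.602 CPM of these, so that they entered that fit through the C57 libraries in which they were high, and nothing is read from these calls. Kit, at -4.70 without BI-274, had at most 0.213 CPM in the other injured MRL libraries. It too entered that fit through the C57 libraries in which it was high, and nothing is read from its value. Without BI-274 the log2 fold change was -4.37 for Cpa3 and -0.74 for Tpsab1, and without BI-275 it was -0.16 for Hdc. Without BI-183 it was -2.62 for Cma1, -2.67 for Mcpt4, -2.27 for Tpsb2 and -1.19 for Cpa3.

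Whether the injury effect differed between strains was tested directly in all 16 libraries. The difference of the log2 fold changes, MRL minus C57, was -4.32 ± 1.85 for Cma1 (unadjusted p = 0.0343, adjusted p = 0.384), -5.21 ± 2.51 for Cpa3 (adjusted p = 0.427), -4.04 ± 2.32 for Tpsb2 (adjusted p = 0.515) and -3.38 ± 1.84 for Mcpt4 (adjusted p = 0.481). For Kit it was -2.48 ± 2.35 and for Tpsab1 -0.69 ± 2.27 (adjusted p = 0.725 and 0.944). Cma1, Ms4a2 and Hdc had an unadjusted p under 0.05 (adjusted p = 0.384, 0.355 and 0.375), of which Hdc went the other way. These values rested on individual libraries: without uninjured C57 replicate 3 Hdc was at 0.40, without uninjured MRL replicate 2 Ms4a2 was at -2.69, and without BI-274 Cma1 was at -7.81. Leaving out a library gave -7.46 to -3.29 for Cpa3, -8.68 to -2.31 for Tpsb2, -7.30 to -2.55 for Mcpt4, -5.16 to -1.33 for Kit and -3.03 to 1.46 for Tpsab1, with the lowest without BI-274 and the highest without uninjured MRL replicate 3. Of the 8 tested members 0 passed, as did 0% of 15947 genes in edgeR, of which 1939 had an unadjusted p under 0.05. DESeq2 called 212 genes (0.713%) and 0 members. A strain difference in the injury effect on mast cell transcripts was therefore not shown.

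The division of tryptase counts is given by library as a description, and was not tested against that of the chymases. Of the counts on Tpsab1 and Tpsb2 together, Tpsab1 took 26.6%, 47.2%, 60.6% and 74.4% in uninjured C57 replicates 1 to 4, and 18.4%, 6.77%, 25.0% and 12.4% in the injured C57 libraries. In MRL it took 91.1%, 65.6% and 76.6% in uninjured replicates 1 to 3, and 47.4%, 70.4% and 100% in BI-272, BI-274 and BI-275. Uninjured MRL replicate 4 had 4 tryptase counts, all Tpsb2 (0%, exact 95% binomial interval 0% to 60.2%), and BI-270 had none. The interval was 5.32% to 8.46% in BI-183, 74.0% to 79.1% in uninjured MRL replicate 3 and 67.8% to 73.0% in BI-274, the 3 libraries with the most tryptase counts, and these intervals cover counting error only.

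These shares were tested between strains after the values had been seen, in 3 ways that were adjusted together. Over all libraries with tryptase counts, the mean share was 64.5% ± 33.2 (SD, n = 7) in MRL and 33.9% ± 24.2 (SD, n = 8) in C57, a difference that missed the threshold (two-sided exact permutation test, p = 0.0615, adjusted p = 0.0923). In injured tendon alone the groups did not overlap (72.6% ± 26.4 in 3 MRL and 15.6% ± 7.84 in 4 C57 libraries), and p = 0.0286 was the smallest that this exact permutation test allows (adjusted p = 0.0857). In uninjured tendon alone the exact permutation test gave p = 0.771, also after adjustment (58.3% ± 40.3 in MRL and 52.2% ± 20.4 in C57, n = 4 each). Pooling injured and uninjured libraries mixes C57 groups with mean shares of 15.6% and 52.2%. Requiring at least 10 tryptase counts leaves out uninjured MRL replicate 4, the lowest MRL library, and because that limit was set with the shares known, no test is drawn from it. Leaving out uninjured C57 replicate 4, rich in epidermal transcripts, removes the C57 library with the highest share, so the difference over all libraries is given without a test, as 36.3 percentage points without it and 30.5 with it.

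Mapping of reads could matter for these shares, since the tryptase coding sequences aligned with 74.9% identical bases over 828 aligned bases. Their most similar stretch of 100 coding bases is shown, with the 7 bases that differ in capitals.
Tpsab1, coding bases 808 to 907: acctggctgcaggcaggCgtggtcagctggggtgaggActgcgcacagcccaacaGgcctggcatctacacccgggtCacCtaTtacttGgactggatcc
Tpsb2, coding bases 706 to 805: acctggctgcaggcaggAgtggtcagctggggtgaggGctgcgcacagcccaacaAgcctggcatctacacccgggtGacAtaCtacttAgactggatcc
No stretch of 100 bases of either gene was found in a transcript of another gene of the reference annotation. As background, C57BL/6 mice are known to make no mMCP-7 protein because of a splice site change in Tpsab1, and counts on a gene do not show whether protein is made. MRL reads were mapped to the C57 reference, and the effect of this was not tested. The plot of tryptase shares gives the interval of each library.

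**Figure D4:**
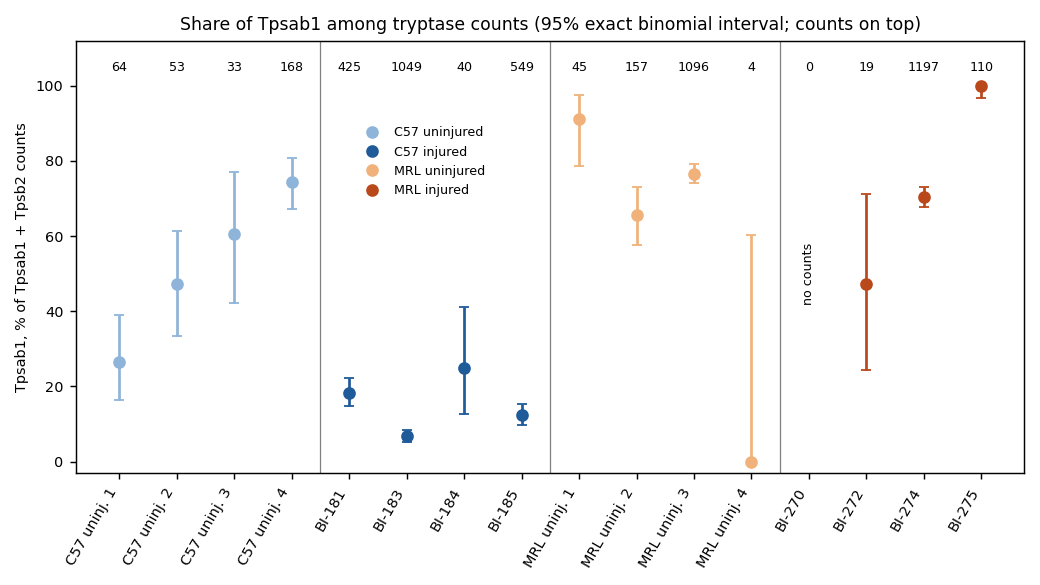
Points give Tpsab1 as a percentage of Tpsab1 and Tpsb2 counts in each library, with exact 95% binomial intervals and the number of tryptase counts on top. The 4 injured C57 libraries lie between 6.77% and 25.0%, and the 3 injured MRL libraries with counts between 47.4% and 100%.

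Over the 16 libraries, log2 CPM of Cma1 followed that of Mcpt4 (Pearson r = 0.97) and Tpsb2 (r = 0.95), and Mcpt4 followed Tpsb2 (r = 0.96). Cpa3 followed them less closely (r = 0.83 with Cma1, 0.71 with Mcpt4 and 0.78 with Tpsb2). Tpsab1 correlated less with the mean of the other members kept by the filter over all libraries (r = 0.58), and Hdc hardly at all (r = 0.04). These are descriptions with no test, over libraries that share the group structure and the scaling, and low counts blur them. The 10 genes whose log2 CPM was most like the mean of the 8 members kept by the filter, of 15939 compared, were C7, Ackr1, Ptprb, Acvrl1, Efhc2, Ms4a4d, Adam33, C1qtnf9, Srpx and Susd2 (r from 0.81 to 0.84). Among them, C7 encodes a complement component, Ackr1 a chemokine-binding receptor of venules, and Ptprb and Acvrl1 receptors of endothelial cells.

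Of 40 other genes of mast cell biology, grouped by role, 1 passed with injury in C57 and 9 in MRL. In C57, this was 1 of 27 tested genes, Lyn, a kinase of the IgE receptor (52.0 ± 17.7 CPM after and 16.1 ± 3.67 before injury, adjusted p = 0.039, edgeR), where 1.07% of all tested genes passed and 0.908% were higher. None of the 40 passed between uninjured strains, between injured strains or in the interaction, where 0%, 3.43% and 0% of all tested genes passed. In MRL injury, 9 of 26 passed, all higher, where 7.41% of all tested genes passed and 5.25% were higher. The 9 were Lyn, Btk and Fcer1g of IgE receptor signalling, the cytokine receptors Il1rl1, Csf2rb and Il4ra, the proteoglycan Srgn, Alox5ap of leukotriene synthesis and the granule membrane protein Cd63. Il1rl1, the IL-33 receptor of mast cells and other cells, had 0.575 ± 0.522 CPM before and 113 ± 59.2 CPM after injury in MRL (adjusted p = 0.000876), and 1.70 ± 2.32 and 25.5 ± 21.6 CPM in C57 (adjusted p = 0.164). BI-270, with 115 CPM of Il1rl1, had no count on any of the 5 proteases. Macrophages also express Fcer1g, Srgn and Lyn, and macrophage markers passed as higher in 5 of 8 genes in C57 (0.908% of all genes) and 3 of 8 in MRL (5.25% of all genes). Their summed CPM was 757 to 1637 before and 4657 to 8205 after injury in C57, and 943 to 1553 and 3500 to 6452 in MRL, and their part in these rises was not tested. Between injured tendons all 8 macrophage markers had lower fitted levels in MRL, and 4 passed as lower, where 3.43% of all genes passed.

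Of the other named genes of these lists, none passed where tested. Gata2, the mast cell transcription factor, had 10.3, 4.20, 1.22 and 10.9 CPM in injured C57, against 0.0765 to 3.32 CPM in uninjured C57 (log2 fold change 2.65 ± 1.20, adjusted p = 0.336). In MRL Gata2 had at most 2.5 CPM before injury, in replicate 3, and at most 2.12 CPM after it, in BI-274, and it was not tested. Those are also the MRL libraries with the most protease counts. Mitf, which activates mast cell and melanocyte genes, had mean levels of 21.4 to 32.3 CPM over the 4 groups.

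Kitl, which encodes stem cell factor, had 18.1 ± 8.94 CPM in injured C57 and 6.35 ± 5.61 CPM in uninjured C57 (adjusted p = 0.353), and 4.62 ± 2.85 and 3.35 ± 2.36 CPM in MRL (adjusted p = 0.759). Slc18a2, which loads histamine and serotonin into granules, had mean levels of 2.80 to 4.36 CPM. Cyp11a1, the first enzyme of steroid synthesis, had 39.5 ± 27 CPM in uninjured C57 and 13.5 ± 4.81 CPM in injured C57 (adjusted p = 0.565), with no count in uninjured C57 replicate 4. Its MRL level was 13.6 ± 26.3 CPM before injury, nearly all in replicate 4, and 1.36 ± 1.87 CPM after it (adjusted p = 0.354). Injured MRL libraries all lay below the injured C57 libraries, as did 7.49% of tested genes, but the difference did not pass the test (log2 fold change -3.34 ± 1.23, adjusted p = 0.159).

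The receptors Mrgprb1 and Mrgprb2, the latter a receptor for basic peptides on connective tissue mast cells, were close to or under the floor in most libraries. Mrgprb1 reached 2.88 and 5.13 CPM in BI-181 and BI-183, 2.32 CPM in uninjured MRL replicate 3 and 1.40 CPM in BI-274, and was under the floor in the other 12. Mrgprb2 reached 1.65, 0.618 and 1.28 CPM in BI-181, BI-183 and BI-185, 1.54 CPM in uninjured MRL replicate 3, 0.450 CPM in BI-274 and 0.645 CPM in uninjured C57 replicate 2. Mcpt1 and Mcpt2, proteases of mucosal mast cells, and Mcpt9 had no count in any library.

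Markers of other cells were set beside the members. The basophil list held 3 genes: Mcpt8, the protease that defines basophils, had no count in any library, Prss34 had 0.613 CPM in BI-181 and 2.29 CPM in BI-183 and none elsewhere, and Cd200r3, shared with mast cells, reached at most 3.35 CPM. Markers of melanocytes, which also make Kit, summed to at most 3.77 CPM except in uninjured C57 replicate 4 (31.4 CPM), where Kit had no count.

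Endothelial markers (6 genes) summed to 16.5 to 83.3 CPM in uninjured C57, 92.5 to 163 CPM in injured C57, 0.131 to 60.4 CPM in uninjured MRL and 0.680 to 28.9 CPM in injured MRL. Between injured tendons all 6 had lower fitted levels in MRL, and 2 passed as lower, where 3.43% of all genes passed. The lowest endothelial sums of the MRL groups were in uninjured replicate 1 and BI-270, and BI-270 was also the library with the fewest mast cell counts. Uninjured MRL replicate 3 had the highest endothelial sum of its group together with the highest protease levels. The order differed elsewhere: in injured MRL the highest endothelial sum was in BI-275 (28.9 CPM, against 23.8 CPM in BI-274), and in uninjured C57 it was in replicate 1 (83.3 CPM), which had a mast cell sum of 13.7 CPM. Adipocyte markers (6 genes) summed to 7.03 to 69.0 CPM in uninjured C57, and to 144, 121, 11.6 and 108 CPM in the injured C57 libraries, with BI-184 lowest as it was for the proteases. In injured MRL they reached 157 CPM in BI-272 and 4.01 CPM in BI-274, the reverse of the mast cell levels there. Loose connective tissue fibroblast markers (6 genes) summed to 479 to 1481 CPM in uninjured C57, 1262 to 2388 CPM in injured C57, 1177 to 1528 CPM in uninjured MRL and 627 to 1202 CPM in injured MRL, with the highest injured values in BI-183 and BI-274. BI-181, with a mast cell sum of 83.4 CPM, was lowest of the injured C57 libraries in these (1262 CPM), below BI-184 (1525 CPM). Markers of vessels, fat and loose connective tissue thus moved with the mast cell transcripts in some libraries and not in others, and their part in the results was not tested.

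The C57 comparison was repeated without the libraries that stood apart in epidermal or muscle markers. Without uninjured C57 replicate 4 and BI-181, the log2 fold change was 4.08 ± 1.02 for Cma1 (adjusted p = 0.0619), 4.00 ± 1.13 for Tpsb2 (adjusted p = 0.0862), 4.32 ± 1.39 for Cpa3 (adjusted p = 0.124) and 3.19 ± 0.91 for Mcpt4 (adjusted p = 0.0711), in an edgeR fit where 5.97% of genes passed. Tpsab1, which was high in uninjured C57 replicate 4, moved to 1.19 ± 0.79 (adjusted p = 0.431). With BI-183 left out as well, which leaves 2 injured against 3 uninjured libraries, it was 2.97 ± 0.75 for Cma1 (adjusted p = 0.0827), 3.17 ± 1.03 for Tpsb2 (adjusted p = 0.156), 3.16 ± 1.22 for Cpa3 (adjusted p = 0.227) and 2.42 ± 0.91 for Mcpt4 (adjusted p = 0.22), where 3.03% of genes passed in edgeR. BI-185, with 10.3 CPM of muscle markers, had a mast cell sum of 145 CPM, and BI-184, with 8.70 CPM of them, had 11.6 CPM.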

How the data were processed

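RNA-seq was analysed in 16 libraries, each from the tendon of a different mouse, and p-values measure the spread between these samples. The authors deposited whole-number counts per gene symbol, not normalized, after trimming with Trimmomatic 0.36 and mapping with STAR 2.5.2b to GRCm38.p5. The submitters' processing notes also name Subread 1.5.0p3 with featureCounts and DESeq2 1.14.1. The annotation and strand setting are not given in the sources used here, so overlapping and antisense genes cannot be told apart. The methods describe pre-amplification of RNA and the labels another kit, and neither names molecular identifiers.

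The members and the other lists were chosen with earlier results of these data known. Counts were fitted with edgeR 4.0.16 in R 4.3.3 (filterByExpr, TMM, robust quasi-likelihood test), with the 8 libraries of each comparison alone and all 16 for the interaction, and adjusted over all genes tested (Benjamini-Hochberg). Calls needed an adjusted p under 0.05 and, outside the interaction, a log2 fold change over 1 in size. Shares called by DESeq2 are over all genes with a count, and a gene without an adjusted p counted as not called. They are thus not on the same base as edgeR shares over filtered genes. Log2 CPM had a prior count of 2. The SE of an edgeR value was derived from its test, as the size of the log2 fold change over the square root of the F statistic. DESeq2 gave its own SE. Named were all 9 members, fixed genes of the pathway lists and any that were called, and the 10 genes most like the members. Alternatives were DESeq2 1.42.0, RLE and total-count scaling, no filter, at least 10 counts in 4 libraries, all libraries in 1 fit, the replicate number as a block and leaving out each library. Leaving out the libraries rich in epidermal or muscle transcripts (with or without BI-183), the variants of the tryptase share and levels per kilobase without a library were chosen after seeing the data. Positions and exon lengths are from GENCODE M21 (GRCm38). The labels do not state that replicate numbers pair uninjured libraries. Correlations of deviations between same-numbered libraries were -0.26, 0.02, -0.10 and -0.23, and shared handling was not tested.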

Additional observations from a re-analysis of the deposited data

Results flagged for a closer look

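Libraries were looked for whose CPM lay far from the 3 others of their group (Dixon's test at 95%). Of 40 groups checked 13 had such a library, where chance gives about 1 in 20 for normal values. CPM are skewed and often 0, so this rate does not hold here, and in 3 of the 13 (Ms4a2 in both uninjured groups and Fcer1a in injured MRL) the other libraries were all at 0, which makes any count stand apart. BI-274 accounted for 5 of them, with Cma1 at 17.0, Mcpt4 at 7.93, Tpsb2 at 15.9, Tpsab1 at 38.0 and Kit at 1.85 CPM, all above the other injured MRL libraries. In uninjured C57, Tpsab1 stood apart in replicate 4 (8.13 CPM), the library rich in epidermal transcripts, Ms4a2 in replicate 2 (0.968 CPM) and Hdc in replicate 3 (12.4 CPM). In injured C57, Tpsab1 was low in BI-184 (0.645 CPM). In uninjured MRL, Tpsab1 was high in replicate 3 (49.9 CPM) and Ms4a2 in replicate 2 (0.933 CPM). In injured MRL, Fcer1a had counts in BI-272 alone (0.634 CPM), and Hdc was high in BI-275 (8.15 CPM).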

How the results depend on the processing

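In C57 injury the count of members called was 0 with edgeR (1.07% of all genes) and 5 with DESeq2 (3.38%, with Fcer1a against a group at 0). It was 1 with RLE factors (1.32%) and 1 with total counts (1.18%), Cma1 in both. Leaving out a library gave 0 to 2, while 0.0667% to 5.01% of genes were called. The 2, Cma1 and Tpsb2, came only without BI-184 (0.253%), the injured library with the least of them, and nothing is read from these calls. In MRL injury DESeq2 called 1 member (Hdc), where it called 6.83% of genes. Between injured tendons DESeq2 and the fit with no filter each called 1 (Ms4a2), where they called 5.49% and 1.85% of genes. Leaving out a library gave 0 to 3 while 1.52% to 3.19% of genes were called, with 1 without BI-184 (2.54%) and 3 without BI-274 (3.19%). Between uninjured strains and in the interaction 0 members were called under every alternative run, where at most 0.381% and 0.713% of genes were called. With the replicate block, Mcpt4 (-0.57) and Tpsb2 (-0.53) turned negative between uninjured strains. The block changed no call, and the labels do not state that same-numbered libraries were paired. Leaving out a library turned the sign of some log2 fold changes, with lowest and highest values of -0.088 and 1.31 for Tpsab1 in C57 injury. In MRL injury they were -2.93 and 1.22 for Cpa3, -3.82 and 0.25 for Cma1, -4.41 and 0.33 for Mcpt4, and -2.79 and 1.68 for Tpsab1, with the lowest without BI-274 and the highest without uninjured replicate 3. Between uninjured strains they were -0.73 and 0.45 for Mcpt4 and -0.56 and 1.55 for Tpsb2, between injured strains -0.74 and 2.02 for Tpsab1 and -0.16 and 2.95 for Hdc, and in the interaction -3.03 and 1.46 for Tpsab1. The cause was not tested. Total counts in place of TMM moved the median log2 fold change of all genes from -0.05 to 0.08 in C57 injury, from -0.06 to -0.20 between injured strains and from -0.03 to -0.14 in the interaction. Fcer1a, Ms4a2, Kit and Hdc were at or near the floor in many libraries, and the part of depth in this was not tested.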
